A study of Mus musculus with 24 samples.

Results

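The genes described here are 10 astrocyte genes: the identity markers Gfap, Aqp4, Aldh1l1 and S100b, the glutamate handling genes Slc1a2, Slc1a3 and Glul, the cystine exchanger gene Slc7a11, and the gap junction genes Gja1 and Gjb6. They were chosen by symbol from the 33364 genes listed in the deposited tables, by a rule that uses no measured value. RNA was sequenced from 2 frontal areas, the ACC (anterior cingulate) and the mPFC (medial prefrontal cortex), of female and male C57BL/6 mice (C57BL/6J in the study's methods), 3 months old, 2 weeks after spared nerve injury (SNI) or sham surgery. SNI is a model of neuropathic pain in which some branches of the sciatic nerve are cut and another is left intact. The 8 groups (female sham, female SNI, male sham and male SNI, each in the mPFC and in the ACC) held 3 libraries each, 24 in all. No allele or drug is named for any group, and the sham mice carried the operation without the nerve injury. The tissue was punched out of the region, and each library was a pool of several animals, so p-values measure the spread between pools and not between single mice. In such bulk tissue, fewer astrocytes, less RNA per astrocyte and a change in RNA of these genes from other cells cannot be told apart.

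Astrocytes take up the glutamate that neurons release, mainly through the transporters GLT-1 (Slc1a2) and GLAST (Slc1a3), and convert it to glutamine with glutamine synthetase (Glul). The cystine and glutamate antiporter xCT, encoded by Slc7a11, exports glutamate in exchange for cystine, which cells use to make glutathione. The connexins of Gja1 and Gjb6 join astrocytes into networks through gap junctions. Gfap encodes an intermediate filament that rises in reactive astrocytes and is low in much of the healthy cortical grey matter, Aqp4 the water channel of the astrocyte endfeet, Aldh1l1 an enzyme of folate metabolism and S100b a calcium binding protein.

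Library depth ran from 23853845 to 32864391 reads assigned to genes. Every member passed the low-count filter in every comparison, and the smallest count of any member in any library was 1082, for S100b. The markers thus showed astrocyte RNA in all 24 libraries. Female SNI mPFC replicate 1 stood apart by its low oligodendrocyte RNA, with 1341 CPM (counts scaled to library size with TMM factors) summed over 20 markers against 2352 to 4946 CPM in the others. Female sham ACC replicate 1 held 984 CPM of ependymal and choroid plexus markers against 8.42 to 89.9 CPM elsewhere. Female sham mPFC replicate 3 and male sham ACC replicate 3 differed from their groups along the GC content of the genes (Spearman's rho across genes of −0.58 and 0.62). For several results of the members, fits without these libraries are given beside those with them. The sex comparison and the sex by SNI interaction of the ACC, and the male region by SNI interaction, are given with all libraries only. The marker lists were fitted with all libraries too.

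The promoters of the 3 genes on which the results below turn are shown for their sequence. Gfap (ENSMUSG00000020932) lies at chr11:102887336-102900912, Slc7a11 (ENSMUSG00000027737) at chr3:49892526-50443614 and Gjb6 (ENSMUSG00000040055) at chr14:57123303-57133611, all on the minus strand of GRCm38. The 250 bases before the RefSeq start of each gene were taken from the RefSeq GRCm38.p6 table, 5′ to 3′ along the gene, at chr3:50443614-50443863 for Slc7a11, chr14:57133612-57133861 for Gjb6 and chr11:102897201-102897450 for Gfap. Capitals mark matches, on either strand, to the amino acid response letters TGATGNAA in Slc7a11 and to the antioxidant response core TGANNNNGC in Gjb6.
Slc7a11: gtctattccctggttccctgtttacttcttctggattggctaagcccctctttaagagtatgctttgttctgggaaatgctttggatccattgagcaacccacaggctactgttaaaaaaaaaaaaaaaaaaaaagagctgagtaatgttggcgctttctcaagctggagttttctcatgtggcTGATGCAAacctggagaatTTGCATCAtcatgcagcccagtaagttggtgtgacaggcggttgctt
Gjb6: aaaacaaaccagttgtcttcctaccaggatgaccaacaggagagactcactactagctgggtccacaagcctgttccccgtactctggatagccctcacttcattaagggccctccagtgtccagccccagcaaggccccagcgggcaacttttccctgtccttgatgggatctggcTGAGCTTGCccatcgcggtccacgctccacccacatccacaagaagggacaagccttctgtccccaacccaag
Gfap: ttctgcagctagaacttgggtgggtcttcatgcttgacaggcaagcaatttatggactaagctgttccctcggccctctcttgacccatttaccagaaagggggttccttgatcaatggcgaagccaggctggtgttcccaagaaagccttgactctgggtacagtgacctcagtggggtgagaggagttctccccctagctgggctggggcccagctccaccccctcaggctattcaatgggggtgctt

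Slc7a11 held 2 matches to TGATGNAA, on opposite strands, 66 to 59 and 47 to 40 bases before the start. Of 32851 promoters of this length, 1134 (3.45%) held at least 1 such match and 13 (0.04%) held at least 2. Slc7a11 was the 1 member with a match among the 9 members whose promoter was read. The TGANNNNGC letters occurred in 35.2% of all promoters and in 5 of the 9 members: Slc7a11, Gja1, S100b, Gjb6 and Slc1a3. One of the 2 such matches in Slc7a11, 45 to 37 bases before the start, overlapped the second TGATGNAA match. The Gfap window held neither. These are matches of letters and were not tested as binding sites.

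Per kilobase of exon, the glutamate handling genes were the most abundant members. Glul was at a median of 434 CPM per kb over the 24 libraries (372 to 497) and Slc1a2 at 290 (247 to 337), so that every library had more Glul than any had Slc1a2. Slc1a3 followed at 60.0 CPM per kb (54.7 to 65.2), below every value of Slc1a2. S100b at 33.6 CPM per kb (27.0 to 43.0) and Gfap at 26.9 (17.5 to 33.8) overlapped in range. Next came Gjb6 at 20.9 CPM per kb, Gja1 at 16.6, Aqp4 at 15.0 and Aldh1l1 at 13.4, each overlapping its neighbour. Slc7a11 was the lowest, at 4.72 CPM per kb (3.90 to 6.09), with no library in the range of another member. These lengths take in all annotated exons of a gene, which lowers the value of genes with long alternative ends such as Slc7a11. They were 10257 bases for Gja1 and 2674 for Gjb6. Before division by length, the median of Gja1 (171 CPM) was above that of Gjb6 (55.8 CPM). Between libraries, Gfap varied most, with a highest CPM 1.92 times the lowest, and Slc1a3 least, at 1.19 times.

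**Figure D1:**
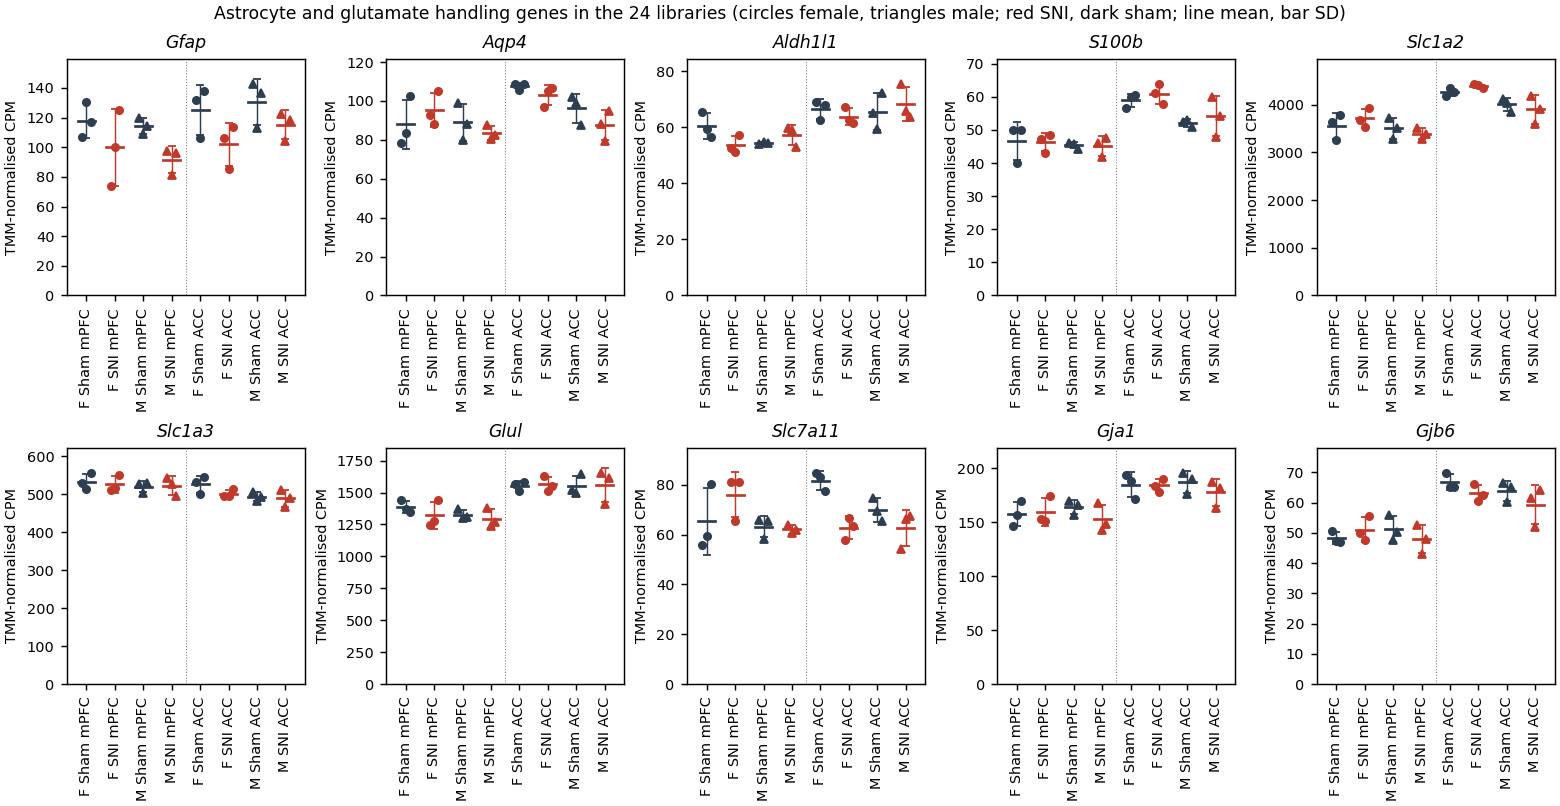
TMM-normalised CPM (y axis, from 0) of the 10 genes in each library, by group (x axis; F female, M male), with the mean (line) and SD (bar) of 3 libraries per group. In the male mPFC the SNI libraries (81.1 to 97.3 CPM of Gfap) lie below the sham libraries, in the female ACC those of Slc7a11 (57.9 to 66.9 CPM) lie below the sham libraries, and Gjb6 is at most 55.9 CPM in the mPFC.

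To ask whether nerve injury moved the astrocyte genes, SNI and sham libraries were compared in each sex and region, 3 against 3. Gfap fell after SNI in the male mPFC, Slc7a11 fell in the female ACC, and no other member passed the test in any of the 4 comparisons. The remaining 9 members of the male mPFC had log2 fold changes of −0.10 to 0.08, and those of the glutamate uptake, glutamine and gap junction genes lay within −0.12 to 0.08 in all 4 comparisons. A gene was called at an adjusted p under 0.1 (edgeR's quasi-likelihood F-test, Benjamini-Hochberg over all genes tested).

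In the male mPFC, Gfap was at 120, 109 and 114 CPM in the sham libraries and at 97.3, 81.1 and 96.5 CPM in the SNI libraries. All 3 SNI libraries lay below all 3 sham libraries. The group means were 114 ± 5.35 CPM and 91.6 ± 9.13 CPM (SD, n = 3 each), and the fitted log2 fold change was −0.32, with an SE of 0.06 and an adjusted p of 0.0729. Gfap was thus the 1 member of 10 called in the male mPFC, where 0.494% of the 16989 genes tested were called, 0.341% as lower and 0.153% as higher. It was also the 1 member whose groups did not overlap, against 16.9% of all genes. The call was lost without male sham mPFC replicate 1 (adjusted p = 0.151) or 3 (0.317), and without male SNI mPFC replicate 2 (0.214) or 3 (0.117), with log2 fold changes of −0.36 to −0.23 over the 6 fits that left out 1 library. In a fit with 1 spread for all 24 libraries the adjusted p was 0.715, where 0 of 16989 genes were called. Gfap was called in 7 of the 8 other settings, which reuse the same libraries.

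In the other 3 comparisons the mean of Gfap was also below that of sham, but it did not pass the test. Female mPFC libraries had 107, 131 and 117 CPM in the sham and 74.0, 100.3 and 125 CPM in the SNI libraries (log2 fold change −0.24, SE 0.14, adjusted p = 0.486). The lowest of these was female SNI mPFC replicate 1, the library low in oligodendrocyte RNA, and without it the log2 fold change was −0.07. The female ACC had 132, 106 and 138 CPM in the sham and 106, 85.5 and 114 CPM in the SNI libraries (−0.30, SE 0.10, adjusted p = 0.635). There Gfap was called with the replicate number as a block (adjusted p = 0.049) and without the low-count filter (5.2e-08), and the latter called it in the female mPFC too (0.0701). The block called 11 of 16684 genes in the female ACC. Without the filter 398 of 28858 genes were called there and 641 of 29247 in the female mPFC, against 4 and 1 with it. The male ACC had 142, 113 and 136 CPM in the sham and 123, 104 and 119 CPM in the SNI libraries (−0.19, SE 0.10, adjusted p = 0.768). In each of these 3 comparisons the SNI and sham libraries overlapped. Over all 24 libraries, with sex and region as terms, the log2 fold change of Gfap was −0.26 (SE 0.07). Its unadjusted p was 0.000704 and its adjusted p 0.777, in a fit that called 0 of 18078 genes and had 869 genes at an unadjusted p under 0.05. That fit was added after the 4 comparisons were seen. Without the low-count filter the adjusted p of Gfap was 0.00533, where 36 of 33364 genes were called.

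Markers of oligodendrocytes, the myelin forming cells, moved with Gfap. In the male mPFC 13 of 20 oligodendrocyte markers fell after SNI, all 20 had negative log2 fold changes, and their median was −0.50, where the median of all genes was 0.0013. Their summed level was 3968 to 4545 CPM in the sham and 2352 to 3418 CPM in the SNI libraries. The 13 included Mbp, Mobp, Mog, Mag, Cnp, Mal, Ermn, Tspan2, Gpr37, Myrf, Trf and Fa2h, from −0.71 for Ermn to −0.44 for Mag. In the female mPFC 0 of the 20 were called and the median was −0.53. There 13 had an unadjusted p under 0.05, against 2039 of 16897 genes. Their summed level was 3513 to 4000 CPM in the female sham mPFC libraries, and 1341, 3287 and 2997 CPM in the female SNI mPFC libraries. The 1341 CPM belonged to female SNI mPFC replicate 1, and no fit of these markers without it is given. The medians of the ACC were 0.17 for females and −0.06 for males. Over the 24 libraries, taken as deviations from the mean of each sex and region, Gfap and the mean of the oligodendrocyte markers had a Pearson r of 0.67 (permutation p = 0.00446, adjusted 0.0446 over 20 relations) and a Spearman rho of 0.56 (p = 0.00842, adjusted 0.0842). Without female SNI mPFC replicate 1 and male SNI mPFC replicate 2, the 2 libraries farthest from the median, r was 0.38, so the relation rested largely on them. It was 0.91 over the 12 libraries of the mPFC and 0.17 over the 12 of the ACC. Over the sham libraries r was 0.17 and over the SNI libraries 0.79. Treatment was not removed from the deviations, so changes that both show after SNI enter r and its p. The relation was also chosen after the data were seen, so its p is no independent test. The part of oligodendrocyte RNA in the change of Gfap was not tested.

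The other identity markers did not pass the test after SNI. Aqp4, the water channel gene, had log2 fold changes of 0.12 for females and −0.09 for males in the mPFC, and −0.07 for females and −0.14 for males in the ACC. Aldh1l1 was at 65.4, 59.6 and 56.4 CPM in the sham and 52.8, 51.3 and 57.3 CPM in the SNI libraries of the female mPFC (−0.17, SE 0.08, adjusted p = 0.413). It had positive log2 fold changes in males, of 0.08 in the mPFC and 0.05 in the ACC. S100b had log2 fold changes between −0.01 and 0.05 in the 4 comparisons. Of 28 other astrocyte markers 0 passed the test in any of them, with medians of −0.13 (females) and 0.04 (males) for the mPFC, and 0.0093 (females) and 0.03 (males) for the ACC. At an unadjusted p under 0.05 there were 8, 3, 1 and 0 of them in this order. Of 26 genes known from reactive astrocytes, 20 to 23 were measured well enough to test. None of these passed in any of the 4 comparisons, and their medians were 0.03, −0.10, −0.12 and −0.12 in the same order. At an unadjusted p under 0.05 there were 0, 2, 7 and 4 of them. Of all genes tested, 2039 of 16897, 1903 of 16989, 1113 of 16684 and 749 of 16702 were at this level, in the same order. The median of all genes lay between −0.0088 and 0.0013.

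No gene of glutamate uptake or glutamine synthesis among the members passed the test after SNI. Slc1a2 was at 4190, 4343 and 4261 CPM in the sham and 4423, 4420 and 4354 CPM in the SNI libraries of the female ACC. The groups did not overlap there, but the log2 fold change of 0.04 (SE 0.02) did not pass the test (adjusted p = 0.722). It was the other of the 2 members without overlap in the female ACC, where 11.8% of all genes had none. In the remaining comparisons Slc1a2 had log2 fold changes of −0.04 to 0.06, Slc1a3 of −0.07 to 0.01 over all 4, and Glul of −0.07 to 0.0064. Of the 20 other genes of glutamate and glutamine transport and metabolism 0 passed in any of the 4 comparisons, with medians of −0.07 (females) and −0.0026 (males) for the mPFC, and 0.03 (females) and 0.0073 (males) for the ACC. At an unadjusted p under 0.05 there were 3, 3, 4 and 1 of them in this order. Genes at this level were 2039 of 16897, 1903 of 16989, 1113 of 16684 and 749 of 16702 of all tested.

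Slc7a11 fell after SNI in the female ACC. The sham libraries were at 84.8, 83.0 and 77.5 CPM and the SNI libraries at 57.9, 66.9 and 63.6 CPM, with no overlap. The group means were 81.7 ± 3.79 CPM and 62.8 ± 4.52 CPM (SD, n = 3 each), and the fitted log2 fold change was −0.38, with an SE of 0.05 and an adjusted p of 0.0599. Slc7a11 was the 1 member of 10 called, where 0.024% of the 16684 genes tested were called, 0.018% as lower. The call was lost without female sham ACC replicate 1 (adjusted p = 0.13), female SNI ACC replicate 1 (0.321) or female SNI ACC replicate 3 (0.212), with log2 fold changes of −0.43 to −0.33 over the 6 fits. In the fit with 1 spread for all 24 libraries the adjusted p was 0.822, where 0 of 16684 genes were called. Slc7a11 was called in 7 of the 8 other settings, which reuse the same libraries.

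In the other 3 comparisons Slc7a11 did not pass the test. Among female mPFC libraries it was at 55.7, 59.6 and 80.5 CPM in the sham and 81.3, 65.6 and 81.3 CPM in the SNI libraries (log2 fold change 0.22, SE 0.12, adjusted p = 0.474). The high sham value belonged to female sham mPFC replicate 3, one of the libraries with a GC trend. Without that library Slc7a11 was called higher after SNI in the female mPFC (0.39, adjusted p = 0.0329) in a fit that called 2758 of 17317 genes, while a correction for GC content brought the log2 fold change to 0.08. Among male mPFC libraries it was at 65.8, 58.3 and 65.6 CPM in the sham and 64.1, 60.5 and 62.0 CPM in the SNI libraries (−0.02). Among male ACC libraries it was at 74.9, 69.4 and 65.3 CPM in the sham and 54.4, 66.2 and 67.4 CPM in the SNI libraries (−0.16, adjusted p = 0.768). By group mean, female sham ACC was the highest for Slc7a11 and male SNI mPFC the lowest, at 62.2 ± 1.80 CPM, and each group overlapped the next in this order.

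The difference between the SNI effects on Slc7a11 in the female mPFC and the female ACC was 0.60 on the log2 scale (SE 0.16, unadjusted p = 0.00174). Its adjusted p was 0.428, so this region by SNI interaction was not called. It was called without female sham mPFC replicate 3 (0.78, adjusted p = 0.0114), where 2070 of 17821 genes were called, and without the low-count filter (0.59, adjusted p = 1.46e-07), where 672 of 31109 were. With all libraries and the filter 0 genes were called. The sex by SNI interaction of Slc7a11 was −0.24 in the ACC (adjusted p = 0.753) and 0.24 in the mPFC (adjusted p = 0.449). Over the 4 interactions 0 members were called by the quasi-likelihood test, by DESeq2 or by the likelihood ratio test. At an unadjusted p under 0.05 there was 1 member each in the sex by SNI interaction of the mPFC and in the region by SNI interaction of females, namely Aldh1l1 (−0.24, adjusted p = 0.251) and Slc7a11. Over all genes 2791 of 17641 and 1932 of 17451 were at this level. Without female sham mPFC replicate 3 the sex by SNI interaction of the mPFC called 3 members, Slc7a11, Aqp4 and Aldh1l1, among 3283 of 17986 genes.

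Markers of meningeal fibroblasts, cells of the membranes around the brain, moved with Slc7a11. In the female ACC all 14 such markers had negative log2 fold changes after SNI, with a median of −0.49, and 1 was called, the collagen gene Col3a1 (−0.99, SE 0.14, adjusted p = 0.067). Their summed level was 296 to 458 CPM in the sham and 263 to 273 CPM in the SNI libraries. The highest value was in female sham ACC replicate 1, the library with choroid plexus RNA and the highest Slc7a11. Over the 24 libraries, as deviations from the mean of each sex and region, Slc7a11 and the mean of the meningeal markers had a Pearson r of 0.65 (permutation p = 0.00266, adjusted 0.0446 over 20 relations) and a Spearman rho of 0.64 (p = 0.00283, adjusted 0.0566). Without female sham ACC replicate 1 and male sham ACC replicate 3, the 2 libraries farthest from the median, r was 0.67. It was 0.73 over the 12 libraries of the mPFC and 0.61 over the 12 of the ACC. Over the sham libraries r was 0.52 and over the SNI libraries 0.80, and treatment was not removed here either. This relation too was chosen after the data were seen, so its p is no independent test. With the oligodendrocyte markers Slc7a11 had an r of −0.34 (permutation p = 0.168). The part of meningeal RNA in the change of Slc7a11 was not tested. No marker of oligodendrocyte precursors, microglia, endothelial and mural cells, ependyma and choroid plexus, or excitatory or inhibitory neurons was called by the quasi-likelihood test in any of the 4 SNI comparisons.

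**Figure D2:**
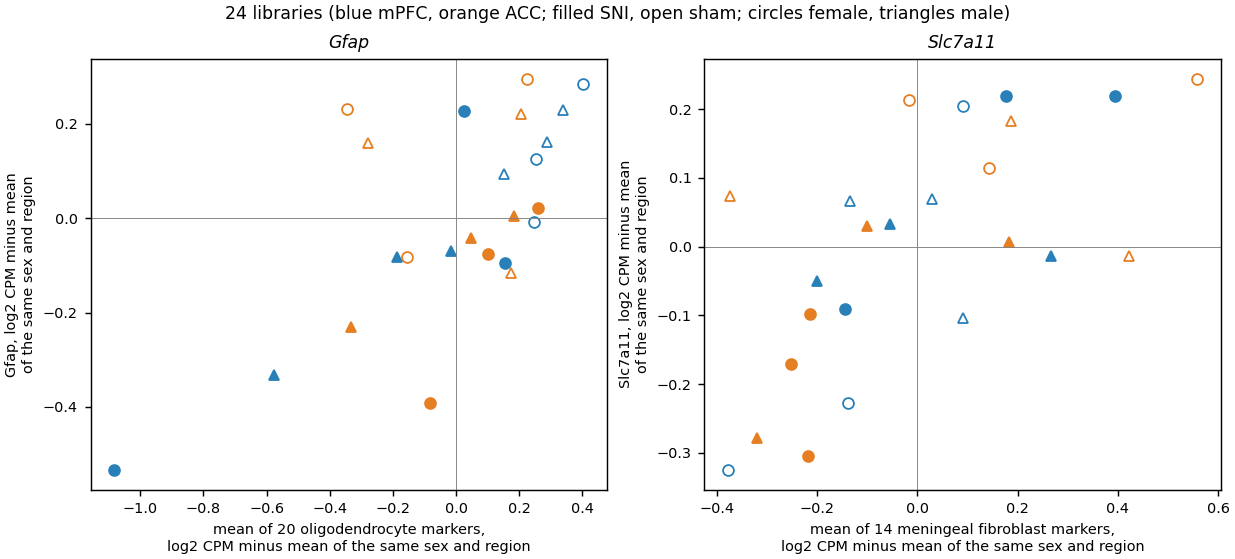
Each point is 1 of the 24 libraries; both axes are log2 CPM minus the mean of the 6 libraries of the same sex and region. Left, Gfap against the mean of 20 oligodendrocyte markers (r = 0.67), with female SNI mPFC replicate 1 at the lower left at −1.08 on the x axis; right, Slc7a11 against the mean of 14 meningeal fibroblast markers (r = 0.65).

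No other gene around cystine exchange passed the test. Of 20 genes of cystine exchange and glutathione synthesis 18 were tested, 0 passed in any of the 4 SNI comparisons, and their medians lay between −0.06 and 0.02. At an unadjusted p under 0.05 there were 4 and 2 of them in the female and male mPFC and 1 in each sex in the ACC. Of all genes, 2039 of 16897 and 1903 of 16989 were at this level in the female and male mPFC. For the ACC they were 1113 of 16684 (females) and 749 of 16702 (males). Slc3a2, which encodes the heavy chain that pairs with xCT, had log2 fold changes of −0.12 (females) and 0.04 (males) for the mPFC, and of −0.07 (females) and 0.05 (males) for the ACC. Atf4, a transcription factor of the amino acid response, lay between −0.05 and 0.04.

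The gap junction genes did not pass the test after SNI. Gja1 had log2 fold changes of 0.02 (females) and −0.10 (males) for the mPFC, and −0.0091 (females) and −0.08 (males) for the ACC. For Gjb6 they were 0.08, −0.09, −0.09 and −0.12 in the same order. Of the 14 other connexin and pannexin genes 11 were tested, and 1 was called: Gjc3, a connexin gene of myelinating cells, fell in the male mPFC (−0.54, SE 0.11, adjusted p = 0.0775).

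In the female mPFC and the male ACC 0 of 10 members were called by the quasi-likelihood test, by DESeq2 or by the likelihood ratio test. There 0.00592% and 0.00599% of all genes were called, which is 1 gene each, and 0 members had groups without overlap, against 15% and 8.19% of all genes. At an unadjusted p under 0.05 there was 1 member (Aldh1l1) in the female mPFC and 0 in the male ACC. Over all genes 2039 of 16897 and 749 of 16702 were at this level. With female sham mPFC replicate 3 left out, 3 members were called in the female mPFC, Slc7a11, Aqp4 (0.23) and Aldh1l1 (−0.22), in a fit that called 2758 of 17317 genes. In the male ACC 0 members were called without male sham ACC replicate 3, in a fit that called 2305 of 17013 genes. With both sexes in 1 fit 0 members and 0 genes were called in the mPFC or the ACC. The members with an unadjusted p under 0.05 were then Gfap in the mPFC (−0.28, adjusted p = 0.477), and Slc7a11 (−0.27) and Gfap (−0.24) in the ACC, both at an adjusted p of 0.814. Over all genes 1293 of 17641 (mPFC) and 961 of 17289 (ACC) were at this level. In these fits without the low-count filter Gfap was called in the mPFC (adjusted p = 9.26e-06) and Slc7a11 in the ACC (0.0184). They then called 539 of 31601 genes in the mPFC and 40 of 30847 in the ACC.

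**Figure D3:**
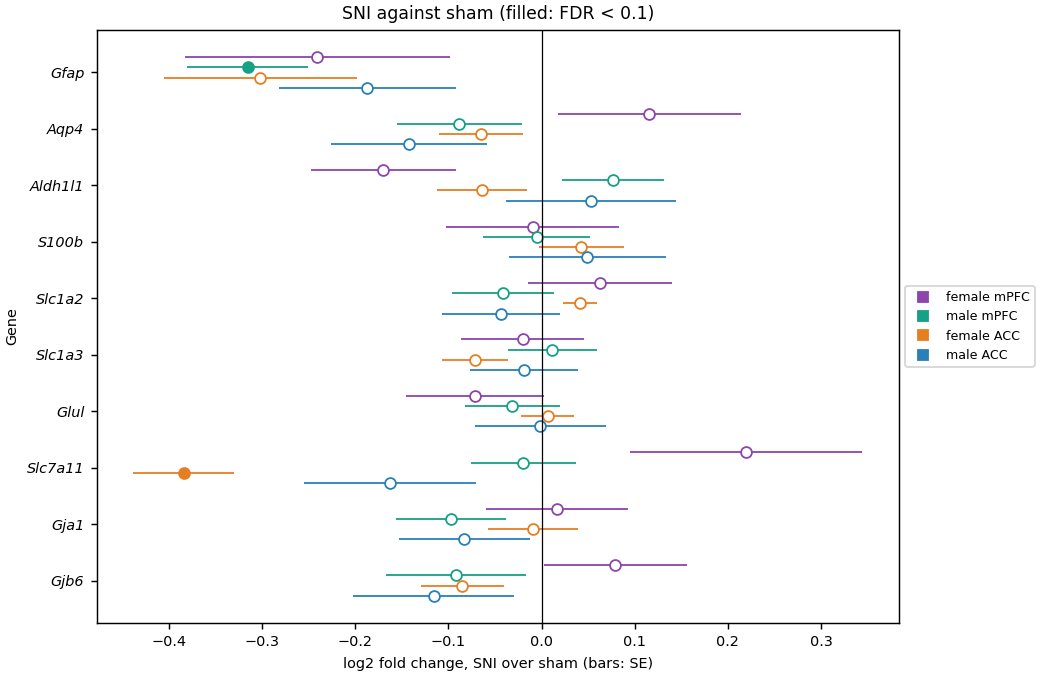
Log2 fold change of SNI over sham (x axis, bars ± SE) for each gene (y axis) in the 4 sex and region comparisons, 3 libraries against 3; filled circles passed an adjusted p under 0.1. The filled points are Gfap in the male mPFC (−0.32) and Slc7a11 in the female ACC (−0.38); the open points of Gfap lie at −0.30 to −0.19.

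More members passed the test between the regions than between SNI and sham libraries. Within each sex and treatment, mPFC libraries were compared with ACC libraries, and these 4 comparisons share no library with each other. Libraries were taken as independent, though mPFC and ACC pools of the same number may share animals. The members that passed were lower in the mPFC, apart from Slc7a11 in SNI females. Gjb6, Glul and S100b were lower in all 4 comparisons, while Slc1a3 had positive log2 fold changes in all 4 and passed in none, though it was called in sham females after a correction for GC content (0.11, adjusted p = 0.0819). In sham females 7 members were lower in the mPFC and 0 higher, where 14.5% of all genes were called lower and 14% higher. In sham males 4 were lower and 0 higher, against 6.7% and 7.46% of genes. In SNI females 6 were lower, against 13.9% of genes, and 1 was higher, against 13.7%. In SNI males 7 were lower and 0 higher, against 10.6% and 10.4% of genes, or 21% in either direction. The median log2 fold changes of the 10 members were −0.24, −0.18, −0.22 and −0.24 in this order, where those of all genes lay between 0.0017 and 0.01. Members whose mPFC and ACC libraries did not overlap numbered 6, 6, 6 and 5, against 37.7%, 28%, 37.6% and 32.8% of all genes. Over all 24 libraries 8 members were lower and 1 was higher in the mPFC, where 24.1% of genes were called lower and 23.9% higher; this fit was added after the 4 comparisons were seen.

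Of the members, the gap junction gene Gjb6 had the largest regional difference over all 24 libraries (−0.35, SE 0.04, adjusted p = 9.98e-08). In the mPFC it was at 50.7, 47.2 and 47.0 CPM in female sham, 49.8, 47.7 and 55.6 CPM in female SNI, 55.9, 47.5 and 50.3 CPM in male sham, and 52.5, 43.1 and 48.1 CPM in male SNI libraries. In the ACC it was at 69.8, 65.2 and 65.3 CPM in female sham, 66.0, 60.6 and 62.5 CPM in female SNI, 66.5, 60.3 and 65.2 CPM in male sham, and 61.6, 52.0 and 64.3 CPM in male SNI libraries. The regions were apart in all groups but male SNI, where the lowest ACC library lay below the highest mPFC library. The log2 fold changes of mPFC over ACC were −0.46 in sham females (SE 0.06, adjusted p = 0.000701), −0.31 in sham males (SE 0.08, adjusted p = 0.026), −0.30 in SNI females (SE 0.06, adjusted p = 0.00508) and −0.31 in SNI males (SE 0.08, adjusted p = 0.0255). Gja1, the other astrocyte connexin gene, passed in 3 comparisons, with −0.22 in sham females, −0.20 in SNI females and −0.22 in SNI males, and had −0.18 in sham males (adjusted p = 0.111), where it passed in 6 of 8 other settings. With a correction for GC content the value in sham females was −0.10 (adjusted p = 0.206). Per kilobase, the ratio of Gjb6 to Gja1 was 1.06 to 1.33 over the mPFC libraries and 1.22 to 1.46 over those of the ACC, so the ratios overlapped. Its size depends on the exon lengths used, and in CPM the median of Gja1 was the higher.

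S100b was at 40.1 to 49.9 CPM in the mPFC and at 48.0 to 63.8 CPM in the ACC. Its log2 fold changes were −0.33 and −0.19 in sham females and males and −0.39 and −0.27 in SNI females and males, with adjusted p-values of 0.019, 0.0902, 0.000602 and 0.0359. S100b overlaps Dip2a on the opposite strand, so reads of the pair may be mixed if strand was not used in counting. Aldh1l1 passed in 3 comparisons (−0.26 in sham males, −0.24 in SNI females, −0.26 in SNI males) and had −0.13 in sham females (adjusted p = 0.214), where a correction for GC content gave −0.25 (adjusted p = 0.00338). Aqp4 passed in sham females alone (−0.28, SE 0.09, adjusted p = 0.0462) and had −0.10, −0.11 and −0.07 in sham males, SNI females and SNI males. Gfap was lower in the mPFC of SNI males (−0.33, SE 0.08, adjusted p = 0.0101; 0.118 with 1 spread for all 24 libraries), where the male SNI ACC libraries were at 104 to 123 CPM and the male SNI mPFC libraries at 81.1 to 97.3 CPM. It had −0.07 in sham females, −0.18 in sham males and −0.02 in SNI females. These comparisons share libraries with those of SNI against sham.

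The 2 glutamate transporter genes were compared as levels and as a ratio. Slc1a2 was at 3250 to 3929 CPM in the mPFC and at 3594 to 4423 CPM in the ACC. It was lower in the mPFC of sham females (−0.25, SE 0.05, adjusted p = 0.00882), SNI females (−0.24, SE 0.05, adjusted p = 0.00428) and SNI males (−0.20, SE 0.06, adjusted p = 0.0309), and had −0.18 in sham males (adjusted p = 0.107), where it passed in 7 of 8 other settings. Slc1a3 was at 496 to 556 CPM in the mPFC and at 467 to 545 CPM in the ACC, with log2 fold changes of 0.03, 0.08, 0.07 and 0.09 in sham females, sham males, SNI females and SNI males. Over all 24 libraries Slc1a3 was called higher in the mPFC (0.06, SE 0.02, adjusted p = 0.0313) and Slc1a2 lower (−0.23, SE 0.03, adjusted p = 4.8e-07). The call of Slc1a3 was lost without the low-count filter (adjusted p = 0.126), without female sham ACC replicate 2 (0.12) and without male sham mPFC replicate 3 (0.118). Per kilobase of exon, the ratio of Slc1a2 to Slc1a3 was 4.04 to 4.69 in the 12 mPFC libraries and 5.0 to 5.80 in the 12 ACC libraries, with no overlap. The log2 ratio was lower in the mPFC by a mean difference of −0.29, between −0.31 and −0.27 in the 4 combinations of sex and treatment. This ratio was chosen after the levels were seen and is given without a test. Glul, which makes glutamine from the glutamate taken up, was lower in the mPFC in all 4 comparisons, with log2 fold changes of −0.15, −0.22, −0.24 and −0.27 in the same order and adjusted p-values of 0.0402, 0.044, 0.0118 and 0.0125.

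Slc7a11 was the 1 member called in opposite directions. It was lower in the mPFC of sham females (−0.32, SE 0.11, adjusted p = 0.0702) and higher in the mPFC of SNI females (0.28, SE 0.08, adjusted p = 0.0259). The sham value fell to −0.12 (adjusted p = 0.262) with a correction for GC content, and passed in 1 of the 6 fits that left out a library, that without female sham mPFC replicate 3 (−0.49, adjusted p = 0.000142). The SNI value was 0.33 at most and 0.27 at least over the 8 other settings and passed in all of them, but was lost without female SNI ACC replicate 1 (adjusted p = 0.135) or female SNI mPFC replicate 3 (0.109). Neither male comparison called it (−0.13 in sham, −0.01 in SNI), and the fit of all 24 libraries gave −0.05 (adjusted p = 0.578). Slc3a2, its heavy chain partner, was higher in the mPFC of sham females (0.19, SE 0.06, adjusted p = 0.0494).

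**Figure D4:**
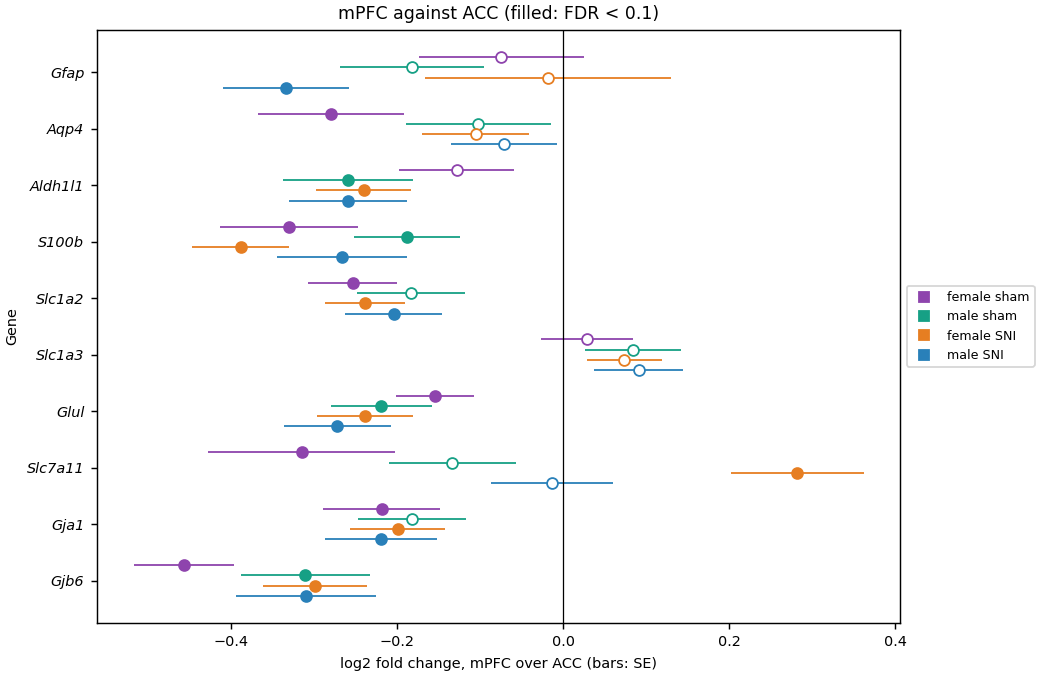
Log2 fold change of mPFC over ACC (x axis, bars ± SE) for each gene (y axis) in the 4 sex and treatment comparisons, 3 libraries against 3; filled circles passed an adjusted p under 0.1. Gjb6 lies at −0.46 to −0.30 with all points filled, Slc1a3 is right of 0 in all 4, and Slc7a11 ranges from −0.32 in sham females to 0.28 in SNI females.

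The number of members called between regions varied with the libraries used. In sham females it was 4 without sham ACC replicate 1 or 3 or sham mPFC replicate 1, and 3 without replicate 2 of either region, in fits that called 2268 to 3731 genes against 4773 with all libraries. In sham males it was 2 without sham ACC replicate 1, 0 without sham mPFC replicate 2 or 3, and 7 without sham ACC replicate 3, the library with a GC trend, as it was with the correction for GC content. The genes called moved too, to 1693, 1152 or 1135, and 4654 in these fits and 4536 with the correction, against 2383. In SNI males it was 3 without SNI ACC replicate 1 or SNI mPFC replicate 2, where 2187 and 2132 genes were called against 3536. Gjb6, S100b and Slc1a2 passed in all 6 such fits in sham females and in all 6 in SNI females. In sham females Glul, Aqp4 and Gja1 each passed in 2 of the 6 fits. In sham males Gjb6 and Glul passed in 4 of the 6 fits, Aldh1l1 in 2 and S100b in 1.

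Other astrocyte genes also passed between the regions. Of 28 other astrocyte markers 7 were lower and 3 higher in the mPFC of sham females, with a median of −0.05. In sham males 11 were lower and 0 higher, with a median of −0.19. Of all genes, 14.5% were called lower and 14% higher in sham females, and 6.7% and 7.46% in sham males. By adjusted p the leading genes in sham females included Fjx1 (0.45), the zinc transporter gene Slc39a12 (−0.39) and Atp1b2 (−0.27), which encodes a sodium pump subunit. In sham males they included Acsl6 (−0.39), Atp1b2 (−0.42) and the tissue factor gene F3 (−0.42). In SNI mice 17 were lower in each sex, with 2 higher in females and 1 in males. Of all genes, 13.9% were called lower and 13.7% higher in SNI females, and 10.6% and 10.4% in SNI males. Of the 21 reactive astrocyte genes tested in sham females 5 were lower and 4 higher. They were led by Amigo2 (0.62), ceruloplasmin Cp (−0.63), the complement inhibitor Serping1 (−0.94) and complement C3 (1.5). In sham males 5 of 23 were lower and 2 higher, led by the hyaluronan receptor Cd44 (1.13), the class I antigen gene H2-D1 (−0.48), Amigo2 (0.59) and Aspg (−0.89). In SNI females 1 of 21 reactive genes was lower and 3 were higher, with a median of 0.02. In SNI males 4 of 21 were lower and 2 higher.

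Of the 20 genes tested in the glutamate and glutamine list, 3 were lower and 2 higher in the mPFC of sham females. In sham males 6 were lower and 1 higher. Of all genes, 28.5% were called in sham females and 14.2% in sham males, in either direction. The leading ones were the vesicular glutamate transporter gene Slc17a6 (−0.94 in females, −1.30 in males), the glutamine transporter gene Slc38a2 (−0.45 and −0.42) and the astrocyte potassium channel gene Kcnj10 (−0.37 and −0.44). They were joined by Slc17a7 (0.29), which is also in the excitatory neuron list, in females and the glutaminase gene Gls2 (−0.48) in males. Of the 18 genes tested in the cystine and glutathione list, Gclm was lower (−0.24) and Slc3a2 and Keap1 (0.23) higher in sham females. In sham males Atf4 (−0.27) and Slc7a10 (−0.31) were lower. Among the 11 other connexin and pannexin genes tested, Gjd2 of neurons was lower in both sexes (−0.67 and −0.70). In females Gjb2 was lower (−0.47) and Panx1 higher (0.20).

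Markers of other cells also differed between the regions, and their part in the members' differences was not tested. Of all genes, 28.5% and 14.2% were called in sham females and males, and 27.6% and 21% in SNI females and males. Meningeal fibroblast markers were lower in the mPFC for 9 of 14 genes in each sex of sham mice (medians −0.76 and −0.94) and in SNI males (median −0.68), and for 0 of 14 in SNI females, where 3 were higher. Oligodendrocyte markers were lower for 2 of 20 in sham females and 0 in sham males, but for 18 in SNI females and 17 in SNI males. The SNI females included female SNI mPFC replicate 1, the library low in these markers. Endothelial and mural markers were lower for 8 and 4 of 14 in sham females and males, and for 4 and 12 in SNI females and males. Microglial markers were higher for 5 of 12 in sham females and 0 in sham males, and markers of oligodendrocyte precursors for 3 and 2 of 10. Excitatory neuron markers were higher for 3 and lower for 2 of 10 in sham females, and 1 and 1 in sham males. Inhibitory neuron markers were lower for 5 and 2 of 10. Of the ependymal and choroid plexus markers 3 were lower in sham females, and 3 were higher and 1 lower in sham males. In females their sum was 984 CPM in sham ACC replicate 1, against 8.51 and 17.5 CPM in sham ACC replicates 2 and 3. No fit of these markers without replicate 1 is given.

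Between sham females and sham males 0 members were called by the quasi-likelihood test, DESeq2 or the likelihood ratio test. Of all genes 0.177% were called in the mPFC (0.0769% higher and 0.101% lower in females) and 0.0958% in the ACC (0.0539% higher and 0.0419% lower). In the mPFC 1789 of 16907 genes had an unadjusted p under 0.05. Among the members this held for Aldh1l1 alone, at 60.5 ± 4.57 CPM in females and 54.5 ± 0.386 CPM in males (log2 fold change 0.16, adjusted p = 0.449). It was called without female sham mPFC replicate 3 (0.20, adjusted p = 0.055), where 2667 of 17176 genes were called against 30 with that library. In the ACC 1109 of 16704 genes had an unadjusted p under 0.05, and 13.5% of all genes had no overlap between the sexes. Both held for 4 members. These were Slc7a11 (0.22, SE 0.07, adjusted p = 0.6), S100b (0.18), Aqp4 (0.16) and Slc1a2 (0.09), each higher in the 3 female libraries.

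The members varied together to different degrees. As deviations from the mean of each sex and region over the 24 libraries, S100b with Slc1a2 (Pearson r = 0.74) and the connexin genes Gja1 with Gjb6 (0.73) had the highest correlations among the 45 pairs, and Aqp4 with Aldh1l1 (−0.39) the lowest. The genes outside the list whose pattern was most like that of Gfap were Apod (r = 0.91), C4b (0.90), Ctnna1 (0.85), Tns3 (0.84) and Foxj1 (0.83). For Slc7a11 they included Ranbp3l (0.85), A330076H08Rik (0.85), Man1a (0.84) and Alcam (0.83). These are descriptions over the same libraries, chosen as the highest of all genes, and no test was made of them.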

How the data were processed

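The authors deposited 4 tables of raw counts, 1 per sex and region, as whole numbers of reads assigned to each gene without normalization. The submitters' processing notes name Trimmomatic 0.36, Bowtie2, HISAT2 2.1.0, HTSeq 0.9.1, edgeR 3.34.0 and the build GRCm38; annotation release and strand setting are not given in the sources used here, so reads of overlapping genes may be shared. Table columns give treatment and number; sex and region come from the table. GENCODE mouse release 21 gave gene names, exon lengths and GC content (33336 of 33364 identifiers matched), and RefSeq GRCm38.p6 the promoters.

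R 4.3.3, edgeR 4.0.16 (legacy quasi-likelihood F-test, TMM, filterByExpr with a count of 10 and a total of 15), limma 3.58.1 and DESeq2 1.42.0 were used. Fits of 2 groups used their 6 libraries alone, and genes were called at an FDR under 0.1. Interactions and fits over both sexes used 12 libraries, and 2 added fits used 24. Displayed CPM were scaled over 24 libraries with 18078 genes; correlations used log2 CPM with a prior count of 2. Depth was 23853845 to 32864391 counts, and a floor of 3 counts is 0.0905 to 0.126 CPM. Replicates are pools, and libraries of the same number in the labels were not taken as pairs (same-number correlations of −0.10 to 0.15 over 10 comparisons). Whether mPFC and ACC pools of a number hold the same animals is not stated in the labels, and these correlations cannot exclude it. The steps were tested on simulated data with planted changes larger than those of the members after SNI. That test does not show whether changes of the members' size would be found.

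The members, the 13 gene lists (209 genes) and the tests were chosen with earlier results of these data known. Named beside the members are list genes called after SNI, up to 4 per astrocyte, glutamate, cystine and connexin list in the sham region comparisons, and the 5 genes most like Gfap and Slc7a11, of which some are not reported here; Slc3a2 and Atf4 were named after their values were seen. Lists of other cell types are given by counts. The GC correction, both 24-library fits, the transporter ratio and the marker correlations (100000 permutations within sex and region) were chosen after seeing the data. Behaviour, qPCR and pathway collections were not used here.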

Additional observations from a re-analysis of the deposited data

How the results depend on the processing

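Each comparison was recomputed without the low-count filter, with DESeq2, with RLE size factors, with the likelihood ratio test, the current quasi-likelihood method, 1 model over 24 libraries, the replicate number as a block, a GC correction chosen after seeing the data, and each library left out in turn. No member's called direction was reversed. Without the low-count filter the members called after SNI were 1 in the female mPFC, 2 in the female ACC, 1 in each region with both sexes, 1 with both sexes and regions and 1 for the region by SNI interaction in females, and 7 between the regions in sham males. Over all genes this setting called 641 of 29247 in the female mPFC and 398 of 28858 in the female ACC. For both sexes it called 539 of 31601 in the mPFC and 40 of 30847 in the ACC. It called 36 of 33364 with both sexes and regions, 672 of 31109 for the interaction and 2801 of 29138 between the regions in sham males. Under the filter these counts were 1, 4, 0, 0, 0, 0 and 2383. The cause was not tested. In the model over 24 libraries 0 members were called in the male mPFC and 0 in the female ACC, where 0 of 16989 and 0 of 16684 genes were called. The GC correction gave 7 between the regions in sham males. With the replicate block 2 members were called in the female ACC, Slc7a11 (adjusted p = 0.0704) and Gfap (−0.30, adjusted p = 0.049), and no other count moved by over 1.5 times; same-numbered libraries did not deviate together in all pairs in any of 10 comparisons, so the numbers were not taken as pairs. With 1 library left out, the members called ranged from 0 to 3 in the female mPFC, 0 to 1 in the male mPFC and 0 to 1 in the female ACC, where the genes called ranged from 0 to 2758, 7 to 126 and 1 to 136. Between the regions they ranged from 3 to 7 in sham females, 0 to 7 in sham males, 6 to 7 in SNI females and 3 to 7 in SNI males, and the counts over all genes moved as well. They ranged from 0 to 1 between sham females and males in the mPFC, 0 to 3 for the sex by SNI interaction in the mPFC and 0 to 2 for the region by SNI interaction in females. For SNI in the male ACC 0 members were called in each of the 6 fits, where the genes called ranged from 0 to 2305. The smallest count of a member in a library was 1082.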
